A study of Mus musculus with 12 samples.

Results

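The genes described here are 42 members of the secretory pathway and the unfolded protein response (UPR), taken by gene name. Each was sought among the gene symbols of the array annotation, was represented by the probe set whose mean over the 12 arrays was highest, and was kept if 2 or more arrays read at least 4 on the log2 scale. Of the 42 members, 41 had a probe set of their own and all 41 passed, out of 18193 genes with a symbol and 9306 genes that passed. Sec61g, a small subunit of the translocation channel, was present only on a probe set shared with other genes and has no value here.

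Secreted and membrane proteins enter the endoplasmic reticulum (ER) through the Sec61 channel, lose their signal peptide, and are folded by chaperones and by enzymes that form disulfide bonds and turn proline bonds. Proteins that fail to fold are passed back to the cytosol for degradation, and folded ones leave in COPII vesicles for the Golgi. When unfolded protein builds up, the membrane sensors IRE1 (Ern1), PERK (Eif2ak3) and ATF6 start the UPR, which raises chaperone and degradation genes through XBP1, ATF6 and ATF4. The pathway is best known in B cells for its expansion when they become antibody-secreting plasma cells, a step that marginal zone (MZ) cells take more readily than follicular (FO) cells.

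The series compared FO and MZ B cells sorted from C57BL/6 mice, all female and 10 weeks old. In all groups, controls included, 1 copy of mb1-cre was present, which drives Cre recombinase in the B lineage from an early stage. Bcl6, a transcriptional repressor whose targets include the plasma cell regulator Prdm1, was present as mb1-cre(+/-)Bcl6(+/+) (wild-type), as mb1-cre(+/-)Bcl6(+/flox) (heterozygous) or as mb1-cre(+/-)Bcl6(flox/flox) (homozygous). Cells bearing CD43, CD138, CD11b, Gr-1 or CD3, among other markers, were depleted on magnetic columns, and FO cells were sorted as B220+AA4.1-CD21intCD23+ and MZ cells as CD21highCD23low. Each of the 6 groups of cell type and genotype held 2 arrays, numbered as replicates. Whether replicates came from different mice, and whether FO and MZ cells came from shared mice, is not stated in the labels. The p-values therefore reflect only how far these samples spread, and that spread may be technical.

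The sorted fractions differed in markers of their labels, though not in every one. Of 3 follicular markers tested, 2 were lower in MZ cells on average and 1, Cr2, was higher. Cr2 encodes CD21, for which MZ cells were sorted as high, and is also on the list of MZ markers. The summed log2 level of the 3, Cr2 included, overlapped, at 14.82 to 15.51 on FO and 14.65 to 15.00 on MZ arrays. Fcer2a, which encodes CD23, read 13.63 to 14.25 on the FO arrays and 8.85 to 9.50 on the MZ arrays, and the mean log2 level of 8 MZ markers was 10.67 to 11.15 on FO and 13.03 to 13.52 on MZ arrays. Bcl6 itself was read by a probe set with levels of 11.65 to 12.88 in FO and 8.29 to 10.37 in MZ cells, and by a second one that read 4.94 and 5.61 in wild-type, 4.93 and 4.86 in heterozygous and 2.36 and 2.48 in homozygous FO cells and lay at its minimum on all MZ arrays. The sources used here do not give the exons these probe sets cover, so neither serves as a check of the deletion. The arrays of a group correlated at 0.975 to 0.984 over the genes tested, except for wild-type MZ cells (0.944), where the Gapdh control probes of replicate 1 read 6.90 log2 units higher at the 3' than at the 5' end, compared with -0.20 to 0.63 on the remaining arrays. Neutrophil markers (5 genes) averaged 4.93 to 7.09 on replicate 1 of the heterozygous FO, homozygous FO, wild-type MZ and homozygous MZ groups and 2.29 to 2.33 on the other arrays. The T cell genes Cd3e, Cd3d, Cd3g and Cd4 lay near the minimum on all 12 arrays. For MZ minus FO, counts of members called are given with and without the 4 arrays with neutrophil markers. For the genotype comparisons they are not. The minimum of the deposited values was 2.21262 on all FO and 2.21924 on all MZ arrays, so a difference between separate normalization runs cannot be told apart from cell type in any MZ minus FO value.

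Several members are textbook targets of the UPR, and their promoters are shown because they carry the sequence through which ATF6 and XBP1 are known to act, the ER stress response element (ERSE). Promoter windows of 300 bases, from 250 before to 50 after the annotated start, came from RefSeq (GRCm38.p6) and matched 33 of the 42 members. The ERSE, searched as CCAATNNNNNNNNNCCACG on both strands, was found in 8 of these 33 (24.2%), namely Hspa5, Hsp90b1, Calr, Canx, Creld2, Dnajc3, Pdia6 and Syvn1. Of all 27025 genes with a window, 0.137% held it. The related ERSE-II, searched as ATTGGNCCACG on both strands, lay in Herpud1 and Dnajb11 (6.06%, against 0.0444% of genes). The core of the XBP1-binding UPR element, TGACGTGG, lay in Sec24d (3.03%, against 0.714% of genes). An ATF4 composite core, TGATGNAA, lay in Herpud1 (3.03%, against 4.51% of genes). In Herpud1 none of these matches overlapped, and a match describes letters in a window, not a bound site. Each stretch below runs 5′ to 3′ on the strand of its gene and holds the match with 20 bases on either side, with the fixed letters of the motif in capitals. On the minus strand of the motif, CCAAT and CCACG read as ATTGG and CGTGG. The stretches lie at chr2:34772005-34772063 on the plus strand for Hspa5, at chr10:86705618-86705676 on the minus strand for Hsp90b1, at chr8:84847055-84847113 on the minus strand for Calr, at chr15:88819500-88819558 on the plus strand for Creld2, at chr14:118937807-118937865 on the plus strand for Dnajc3 and at chr8:94386357-94386407 on the plus strand for Herpud1. Counted from the first transcribed base as 0, the motifs begin at -65, -212, -162, -126, -105 and -52, in that order, and Hsp90b1 holds a second ERSE at -107.
Hspa5: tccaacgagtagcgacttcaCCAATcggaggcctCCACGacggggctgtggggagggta
Hsp90b1: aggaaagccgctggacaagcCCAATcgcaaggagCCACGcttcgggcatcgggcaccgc
Calr: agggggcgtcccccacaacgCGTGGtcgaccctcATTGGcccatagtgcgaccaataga
Creld2: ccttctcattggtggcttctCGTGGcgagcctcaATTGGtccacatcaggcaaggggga
Dnajc3: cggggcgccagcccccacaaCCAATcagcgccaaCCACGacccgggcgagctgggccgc
Herpud1: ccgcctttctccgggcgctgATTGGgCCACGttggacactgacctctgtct

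These naive B cells expressed most of the pathway in every group. On all 12 arrays, 33 of the 41 measured members had a log2 value of 8 or more. At the low end, Sec24d read 2.22 to 4.74, Fkbp11 2.66 to 7.61, Ern1 5.24 to 6.85 and Hyou1 6.23 to 7.20. Levels are log2 values of single probe sets, so they are compared between arrays for each gene and not between genes. Among the arrays the members were about as reproducible as other genes, with a median absolute difference between the arrays of a group of 0.17 to 0.30, against 0.22 to 0.37 over all genes tested.

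**Figure D1:**
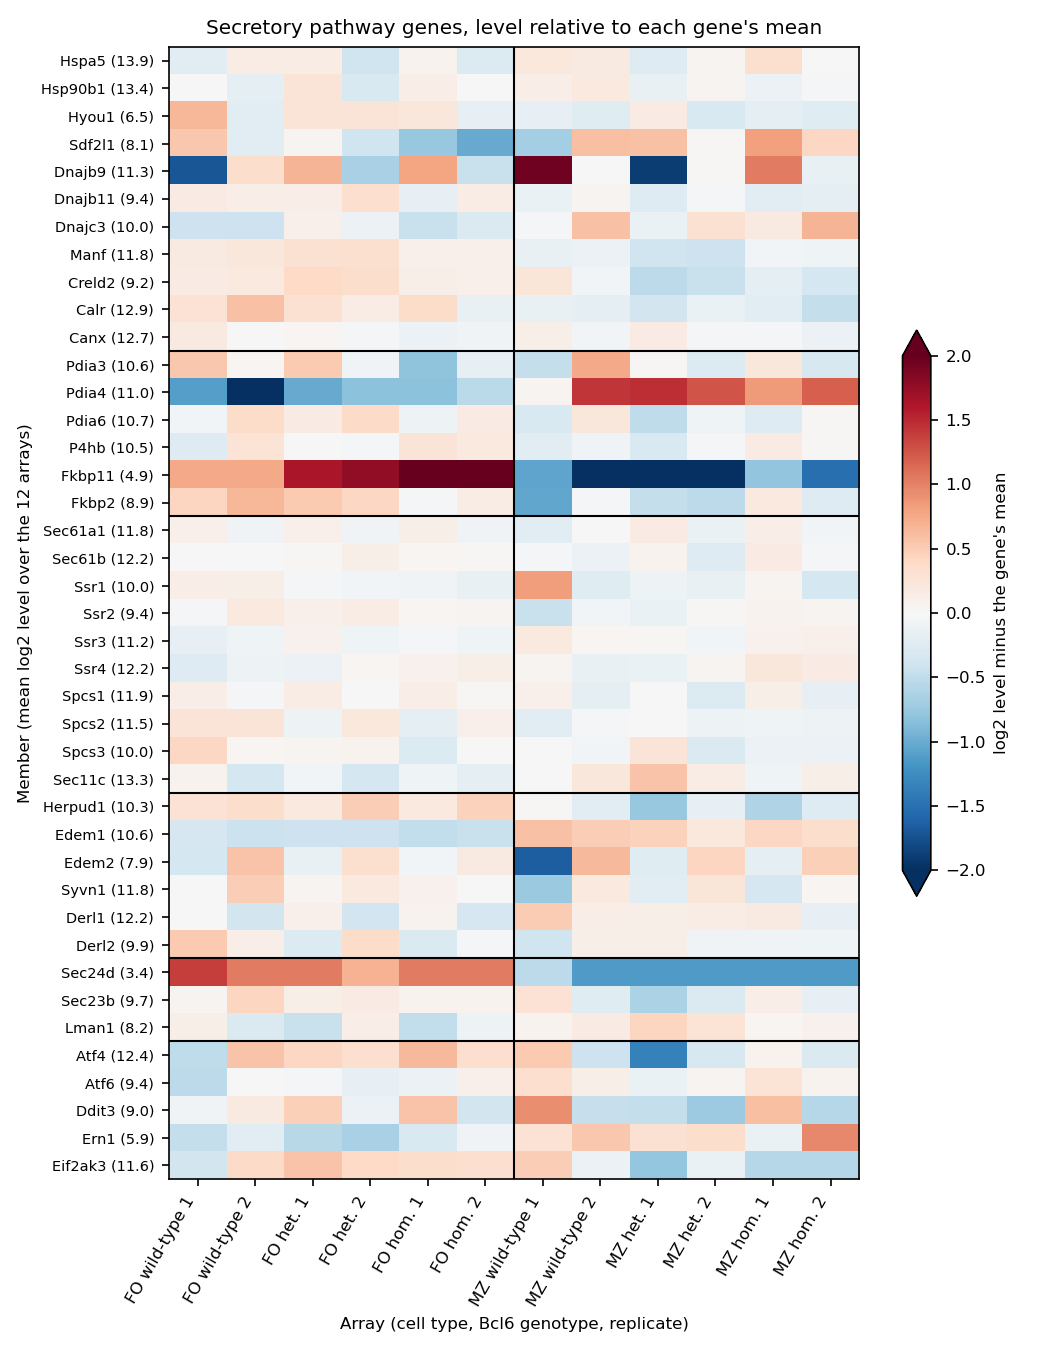
Log2 level of each of the 41 measured members minus that gene's own mean over the 12 arrays, in colour from -2 to 2 (values beyond are drawn at the ends), with members in rows by role and arrays in columns by cell type, Bcl6 genotype and replicate. Most rows are pale across the table, while Pdia4, Fkbp11, Edem1 and Sec24d divide at the line between FO and MZ arrays and Dnajb9 varies within groups.

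The design first asks how the pathway differs between MZ and FO cells. Averaged over the 3 genotypes, 12 of 41 members passed the threshold of 0.05 on the limma p-value adjusted over all 9306 genes, 4 higher in MZ cells (Pdia4, Edem1, Ern1 and Dnajc3) and 8 lower (Fkbp11, Sec24d, Fkbp2, Herpud1, Eif2ak3, Calr, Creld2 and Manf). Over all genes tested 44.5% passed, 16.2% higher and 28.3% lower, so the members' share lay below that of genes in general. Fkbp11 and Sec24d had reached the filter value of 4 on FO arrays alone, so they could be kept only by being high there, and no weight rests on their calls. Among the 39 members that reached it in both cell types 10 passed, against 40.7% of such genes. Without the 4 arrays with neutrophil markers Calr, Herpud1 and Eif2ak3 did not pass. Their differences were then -0.45, -0.74 and -0.62 log2 units, against -0.51, -0.66 and -0.55 with all arrays. That fit left 1 array in each group it touched and called fewer genes in general. A call lost there cannot be told apart from the smaller number of arrays. The median difference of the members was -0.13 log2 units, against -0.17 over all genes. In 6 members (Pdia4, Edem1, Fkbp11, Sec24d, Herpud1 and Manf) the 6 FO and 6 MZ arrays did not overlap, against 28.4% of genes tested. Being bulk samples, these cannot tell fewer cells of a type from less RNA per cell.

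Within single genotypes fewer members passed. In wild-type cells there were 5, of which Pdia4 and Edem1 were higher in MZ cells and Fkbp11, Fkbp2 and Sec24d lower, against 22.2% of all genes (10.7% higher, 11.5% lower). In heterozygous cells there were 8, of which Pdia4 and Edem1 were higher and Fkbp11, Sec24d, Manf, Creld2, Herpud1 and Fkbp2 lower, against 23.2% (9.94% higher, 13.3% lower). In homozygous cells there were 5, of which Pdia4, Edem1 and Sdf2l1 were higher and Fkbp11 and Sec24d lower, against 19.1% (8.28% higher, 10.8% lower). Pdia4 and Edem1 thus passed in each genotype. Fkbp11 and Sec24d are also counted in each, but they were kept for their FO values, so no weight rests on those calls. Without the 4 arrays that carried neutrophil markers, Pdia4 passed in wild-type cells. The other calls of members that reached the filter in both cell types were lost. That fit left 1 array in each group it touched, so a lost call cannot be told apart from the smaller number of arrays. In wild-type cells Edem1 then differed by 0.88 and Fkbp2 by -0.59, against 0.92 and -1.09 with all arrays. In heterozygous cells Edem1, Pdia4 and Manf differed by 0.76, 2.18 and -0.73, against 0.76, 2.28 and -0.72. Creld2, Herpud1 and Fkbp2 differed there by -0.83, -0.95 and -0.92, against -0.85, -0.80 and -0.98. In homozygous cells Edem1, Pdia4 and Sdf2l1 differed by 0.79, 1.73 and 1.41, against 0.84, 1.71 and 1.49.

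The split into higher and lower members depended on scaling. Quantile normalization over all 12 arrays moved the median of all genes from -0.17 to 0.04. For the average it gave 11 members higher and 4 lower, against 2135 higher and 1518 lower of 9315 genes. Centring each array on its median gave 10 members higher and 7 lower, against 2074 higher and 1745 lower of 9306 genes. As deposited, 1508 genes were higher and 2629 lower, so the split moved the same way over genes in general. For heterozygous cells the split went from 2 higher and 6 lower to 5 and 3, or 3 and 4. The members gained under quantile normalization were Atf6, Derl1, Lman1, Sdf2l1, Sec11c, Ssr3 and Ssr4, all higher in MZ cells, and Calr, Creld2, Manf and Eif2ak3 no longer passed.

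**Figure D2:**
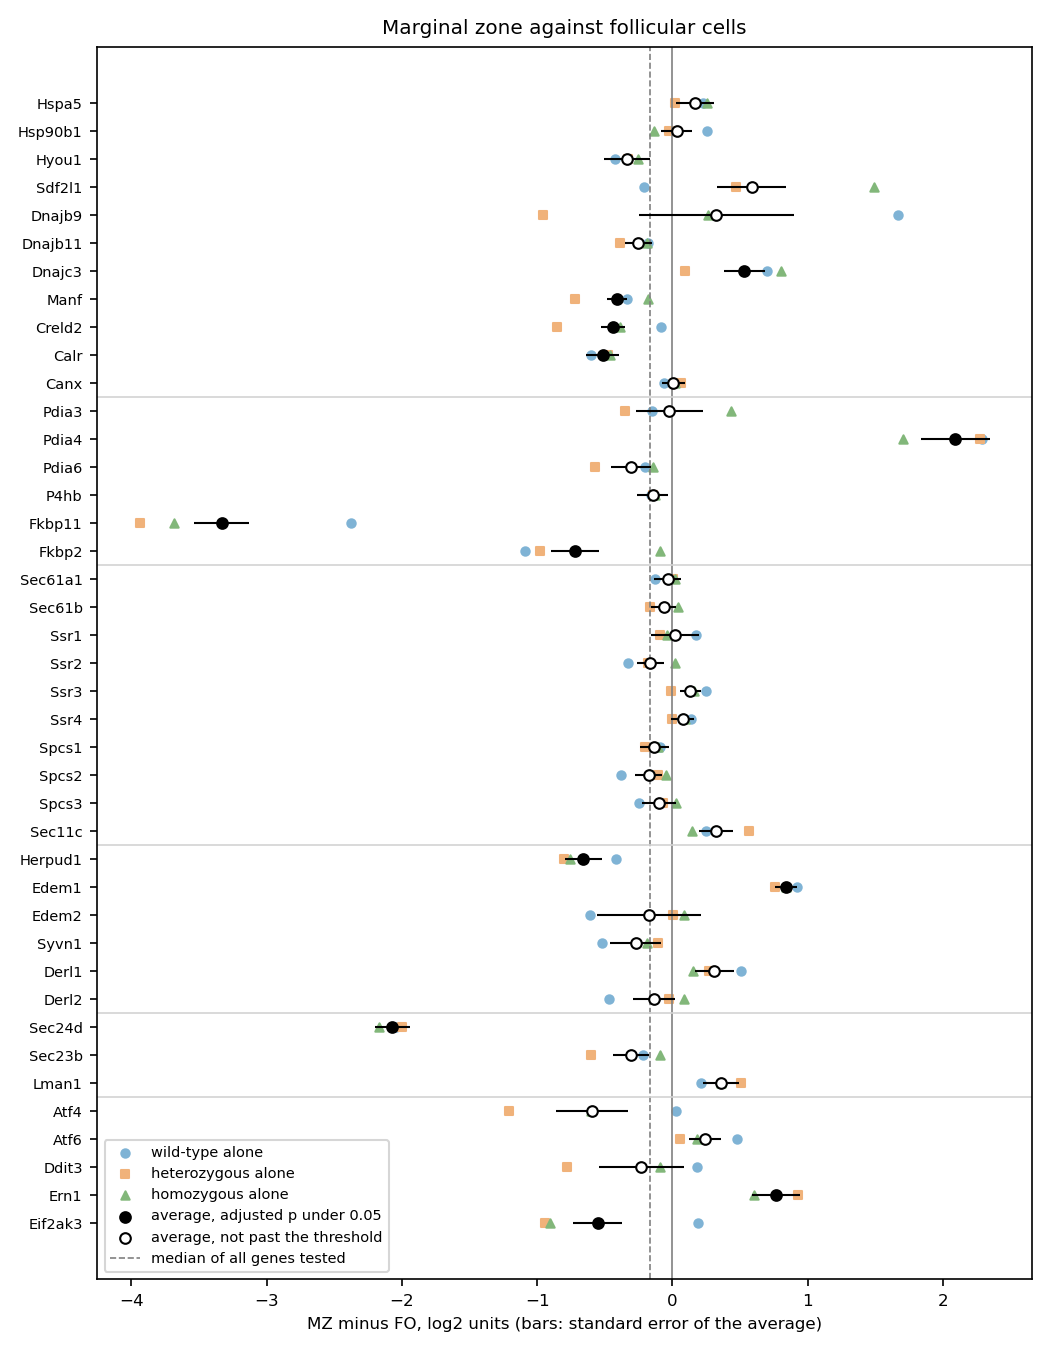
Difference between MZ and FO arrays in log2 units for each measured member, ordered by role, with the average of the 3 genotypes as a large circle (filled where the limma adjusted p was under 0.05, bars showing its standard error) and each genotype as a small coloured mark. Fkbp11 (-3.33), Sec24d (-2.07) and Pdia4 (2.09) lie far from 0, and most other members lie near the dashed median of all genes at -0.17.

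Of the 11 ER chaperones and co-chaperones, Dnajc3 rose and Calr, Creld2 and Manf fell in MZ cells on average. The main luminal chaperone Hspa5 (BiP), which binds unfolded chains and holds the sensors inactive, read 13.64 and 14.01 on the wild-type FO arrays, 14.01 and 13.46 on the heterozygous and 13.93 and 13.59 on the homozygous ones, and 14.07 and 14.03, 13.60 and 13.92, and 14.18 and 13.87 on the MZ arrays in the same order of genotype. The groups overlapped, with an average MZ minus FO difference of 0.17 ± 0.14 (SE). Hsp90b1 (GRP94), the ER form of HSP90 and a folding chaperone of integrins and Toll-like receptors, read 13.07 to 13.62 on FO and 13.23 to 13.57 on MZ arrays, a difference of 0.03 ± 0.11. Neither of these chaperones passed.

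Calr, the calcium-binding lectin chaperone calreticulin, read 13.14 and 13.43, 13.16 and 13.00, and 13.22 and 12.71 on wild-type, heterozygous and homozygous FO arrays, and 12.70 and 12.66, 12.48 and 12.72, and 12.63 and 12.38 on the MZ arrays. Homozygous FO replicate 2 alone lay within the MZ range. The average difference was -0.51 ± 0.12 (SE; limma adjusted p = 0.00918), and it did not pass without the 4 arrays with neutrophil markers (adjusted p = 0.0861). All 3 of its probe sets were lower in MZ cells. Its membrane-bound relative Canx, calnexin, read 12.54 to 12.85 on FO and 12.55 to 12.83 on MZ arrays.

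Manf, a small secreted ER stress protein, read 12.02 and 12.07, 12.15 and 12.18, and 11.95 and 11.95 on FO arrays and 11.70 and 11.73, 11.46 and 11.43, and 11.79 and 11.76 on MZ arrays. Each MZ array lay below each FO array, at -0.41 ± 0.07 (SE; limma adjusted p = 0.00187). Creld2, an ER-stress-induced protein with disulfide isomerase activity, read 9.37 and 9.40, 9.60 and 9.56, and 9.32 and 9.32 on FO arrays and 9.45 and 9.15, 8.69 and 8.77, and 9.01 and 8.86 on MZ arrays, at -0.44 ± 0.09 (adjusted p = 0.00357). In wild-type cells Creld2 overlapped between the cell types, and in heterozygous cells it differed by -0.85 ± 0.15 (adjusted p = 0.00427, or 0.0548 without the 4 arrays with neutrophil markers).

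Dnajc3 (p58IPK), a BiP co-chaperone, went the other way. It read 9.60 and 9.59, 10.12 and 9.89, and 9.56 and 9.71 on FO arrays and 9.99 and 10.60, 9.87 and 10.32, and 10.20 and 10.68 on MZ arrays, at 0.53 ± 0.15 (SE; limma adjusted p = 0.02). All of its 5 probe sets were higher in MZ cells, but the call was lost without heterozygous FO replicate 2, homozygous FO replicate 1, heterozygous MZ replicate 2 or homozygous MZ replicate 2 (adjusted p of up to 0.0553). The BiP co-chaperone Sdf2l1 read 8.63 and 7.88, 8.15 and 7.69, and 7.33 and 7.08 on FO arrays and 7.40 and 8.69, 8.67 and 8.11, and 8.91 and 8.50 on MZ arrays. It passed in homozygous cells (1.49 ± 0.44, adjusted p = 0.0457) and not on average (0.58 ± 0.25, adjusted p = 0.0916), and the homozygous call was lost in 11 of the 22 alternatives computed, among them without any of the 4 homozygous arrays (adjusted p of up to 0.233). Of the remaining chaperones, Dnajb11 and the nucleotide exchange factor Hyou1 differed by -0.25 and -0.33 on average (adjusted p = 0.0666 for Dnajb11), and neither passed.

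Among the 6 disulfide and prolyl isomerases, Pdia4 rose, Fkbp2 fell and Fkbp11 was called lower against a floor. Pdia4 (ERp72), a protein disulfide isomerase that works with BiP on immunoglobulin chains, read 9.86 and 8.96, 9.96 and 10.15, and 10.13 and 10.42 on FO arrays and 11.01 and 12.39, 12.44 and 12.21, and 11.81 and 12.15 on MZ arrays. The lowest MZ value was that of wild-type replicate 1, the array with the Gapdh difference, and still lay above every FO array. The average difference was 2.09 ± 0.25 (SE), a 4.26-fold higher level in MZ cells (limma adjusted p = 0.000235). The average passed under every alternative computed, with an adjusted p of 4.76e-05 to 0.011, while the homozygous difference of 1.71 ± 0.44 (adjusted p = 0.0282) was lost without any of the 4 homozygous arrays. A second Pdia4 probe set lay near the minimum on all 12 arrays.

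The other disulfide isomerases of the list did not pass. Pdia3 (ERp57), which acts on glycoproteins held by calreticulin and calnexin, read 9.78 to 11.13 on FO and 10.11 to 11.34 on MZ arrays, a difference of -0.02. Pdia6 read 10.55 to 11.04 and 10.14 to 10.89 (-0.31, adjusted p = 0.125), and P4hb, the classical protein disulfide isomerase, read 10.27 to 10.79 and 10.22 to 10.68 (-0.15, adjusted p = 0.33).

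Fkbp11, a membrane-anchored prolyl isomerase of the ER known for high expression in secretory cells, had the largest difference of the members. It read 5.68 and 5.68 on wild-type, 6.55 and 6.69 on heterozygous and 7.61 and 7.31 on homozygous FO arrays, and 3.87 and 2.74, 2.66 and 2.72, and 4.13 and 3.42 on the MZ arrays. The difference was -3.33 ± 0.21 (SE), given as a description because the gene reached the filter through its FO arrays. Of the MZ arrays, 2 lay within 0.5 of the minimum, so the size is set partly against a floor, and 1 of its other probe sets was near the minimum throughout. Fkbp2, a small luminal prolyl isomerase, read 9.36 and 9.59, 9.45 and 9.35, and 8.90 and 9.08 on FO arrays and 7.89 and 8.89, 8.45 and 8.40, and 9.12 and 8.68 on MZ arrays, at -0.72 ± 0.18 (adjusted p = 0.0103). In homozygous cells its arrays overlapped between the cell types.

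No member of the entry machinery passed as deposited. This held for the 10 measured members of the translocon, the translocon-associated protein (TRAP) complex and signal peptidase in each genotype and on average, where the list's median difference was -0.05, but Sec11c, Ssr3 and Ssr4 passed on average, higher in MZ cells, after quantile normalization. Sec61a1, the pore-forming subunit, read 11.89 and 11.72, 11.90 and 11.71, and 11.90 and 11.73 on FO arrays and 11.56 and 11.79, 11.96 and 11.66, and 11.92 and 11.74 on MZ arrays. The small channel subunit Sec61b read 12.20 to 12.32 and 11.96 to 12.38. The largest average difference was that of Sec11c, a catalytic subunit of signal peptidase, at 0.32 ± 0.13 (SE; limma adjusted p = 0.0682). Ssr1, of the TRAP complex, read 10.81 on wild-type MZ replicate 1 and 9.62 to 10.10 on all other arrays. The probe sets of a gene did not always match here: further probe sets of Sec61a1 (-0.63), Ssr1 (-0.80) and Spcs1 (-1.66) were lower in MZ cells where those used differed by -0.04, 0.02 and -0.13.

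In ER-associated degradation, 1 of 6 members rose and 1 fell. Edem1, a mannosidase-like protein that marks misfolded glycoproteins for disposal, read 10.22 and 10.14, 10.14 and 10.14, and 10.07 and 10.12 on FO arrays and 11.15 and 11.05, 11.02 and 10.77, and 10.96 and 10.91 on MZ arrays. The cell types did not overlap, at 0.84 ± 0.08 (SE; 1.79-fold, limma adjusted p = 6.2e-05), and both of its probe sets were higher in MZ cells. Its relative Edem2 read 7.50 to 8.41 on FO arrays, 6.20 on wild-type MZ replicate 1 and 7.61 to 8.50 on the other MZ arrays. Herpud1, a membrane component of the degradation complex, read 10.60 and 10.66, 10.50 and 10.80, and 10.50 and 10.77 on FO arrays and 10.34 and 10.09, 9.56 and 10.14, and 9.70 and 10.05 on MZ arrays. It fell by 0.66 ± 0.14 (adjusted p = 0.00475), with an adjusted p of 0.0572 without the 4 arrays with neutrophil markers. The ubiquitin ligase Syvn1 (HRD1) and the channel-forming Derl1 and Derl2 differed by -0.27, 0.31 and -0.14 and did not pass.

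Of the 3 members that carry cargo to the Golgi, Sec24d alone was called lower, against a floor. Sec24d, a cargo-selecting subunit of the COPII coat, read 4.74 and 4.39, 4.39 and 4.05, and 4.39 and 4.39 on FO arrays, 2.83 on wild-type MZ replicate 1 and 2.22 on each of the other 5 MZ arrays. All 5 lay at the minimum, and the gene reached the filter through its FO arrays alone. The difference of -2.07 is therefore a description of a low level set against a floor, and its p-value is not given. Lman1 (ERGIC-53), the lectin receptor for glycoprotein cargo, read 8.36 and 7.95, 7.80 and 8.38, and 7.76 and 8.14 on FO arrays and 8.32 and 8.42, 8.67 and 8.53, and 8.28 and 8.34 on MZ arrays, at 0.36 ± 0.14 (adjusted p = 0.0608). Sec23b, the inner COPII coat subunit, differed by -0.30 ± 0.13 (adjusted p = 0.0953). Neither passed.

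Among the 5 stress sensors and factors, Ern1 rose and Eif2ak3 fell. Ern1, the kinase and ribonuclease IRE1 that splices Xbp1 mRNA, read 5.42 and 5.67, 5.34 and 5.24, and 5.59 and 5.82 on FO arrays and 6.19 and 6.43, 6.21 and 6.24, and 5.76 and 6.85 on MZ arrays. Homozygous MZ replicate 1 alone lay within the FO range, and the difference was 0.77 ± 0.18 (SE; limma adjusted p = 0.00868). With the median over its probe sets, 2 of which were near the minimum on all arrays, Ern1 did not pass (0.44, adjusted p = 0.0964). A dimmer Ern1 probe set read 3.54 to 3.88 on FO and 4.24 to 4.71 on MZ arrays, a difference of 0.85. Another differed by 0.15 and overlapped between the cell types. Eif2ak3, the kinase PERK that slows translation through eIF2, read 11.22 and 11.97, 12.17 and 11.99, and 11.94 and 11.93 on FO arrays and 12.09 and 11.48, 10.81 and 11.46, and 11.02 and 11.03 on MZ arrays, at -0.55 ± 0.18 (adjusted p = 0.0351). In wild-type cells alone Eif2ak3 differed by 0.19, in the other direction and without passing, as all 5 stress sensors and factors were above 0 there. The average call was lost with its direction kept in 12 of 22 alternatives. These included quantile normalization (limma adjusted p = 0.184) and median centring (adjusted p = 0.088). They also included removal of any single array other than wild-type FO replicate 1, wild-type MZ replicate 1 and heterozygous MZ replicate 2. With the median over probe sets the average difference turned to 1.39, also without passing. A further probe set of Eif2ak3 was higher in MZ cells by 1.39, though without passing.

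Atf6, the membrane-bound factor cleaved under stress, read 8.86 and 9.39, 9.35 and 9.21, and 9.26 and 9.48 on FO arrays and 9.71 and 9.50, 9.25 and 9.43, and 9.65 and 9.46 on MZ arrays. The difference was 0.24 and did not pass, whereas a dimmer Atf6 probe set was 1.17 higher in MZ cells (limma adjusted p = 0.000509 over all probe sets). That fit had no low-value filter and also called an Ern1 probe set near the minimum on all 12 arrays, which differed by 0.0066. Its calls do not show what would pass the filtered test. Atf4, the factor made when eIF2 is phosphorylated, read 11.93 and 13.00, 12.84 and 12.78, and 13.08 and 12.77 on FO arrays and 12.96 and 12.03, 11.08 and 12.11, and 12.50 and 12.14 on MZ arrays, at -0.59 ± 0.26 (SE; limma adjusted p = 0.101). A further bright probe set of Atf4 was lower in MZ cells by a larger amount, at -0.80 (limma adjusted p = 0.0248 over all probe sets, with the same limit). Its target Ddit3 (CHOP), which promotes death under lasting stress, read 8.93 and 9.18, 9.48 and 8.87, and 9.57 and 8.63 on FO arrays and 9.93 and 8.54, 8.52 and 8.27, and 9.60 and 8.43 on MZ arrays. Atf4 and Ddit3 overlapped between the cell types. On the same comparison 5 of 12 immediate early genes fell and none rose, with a median of -0.68 (3 fell after quantile normalization and 2 without the 4 arrays with neutrophil markers), and their part in the lower Atf4 and Eif2ak3 values was not tested.

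**Figure D3:**
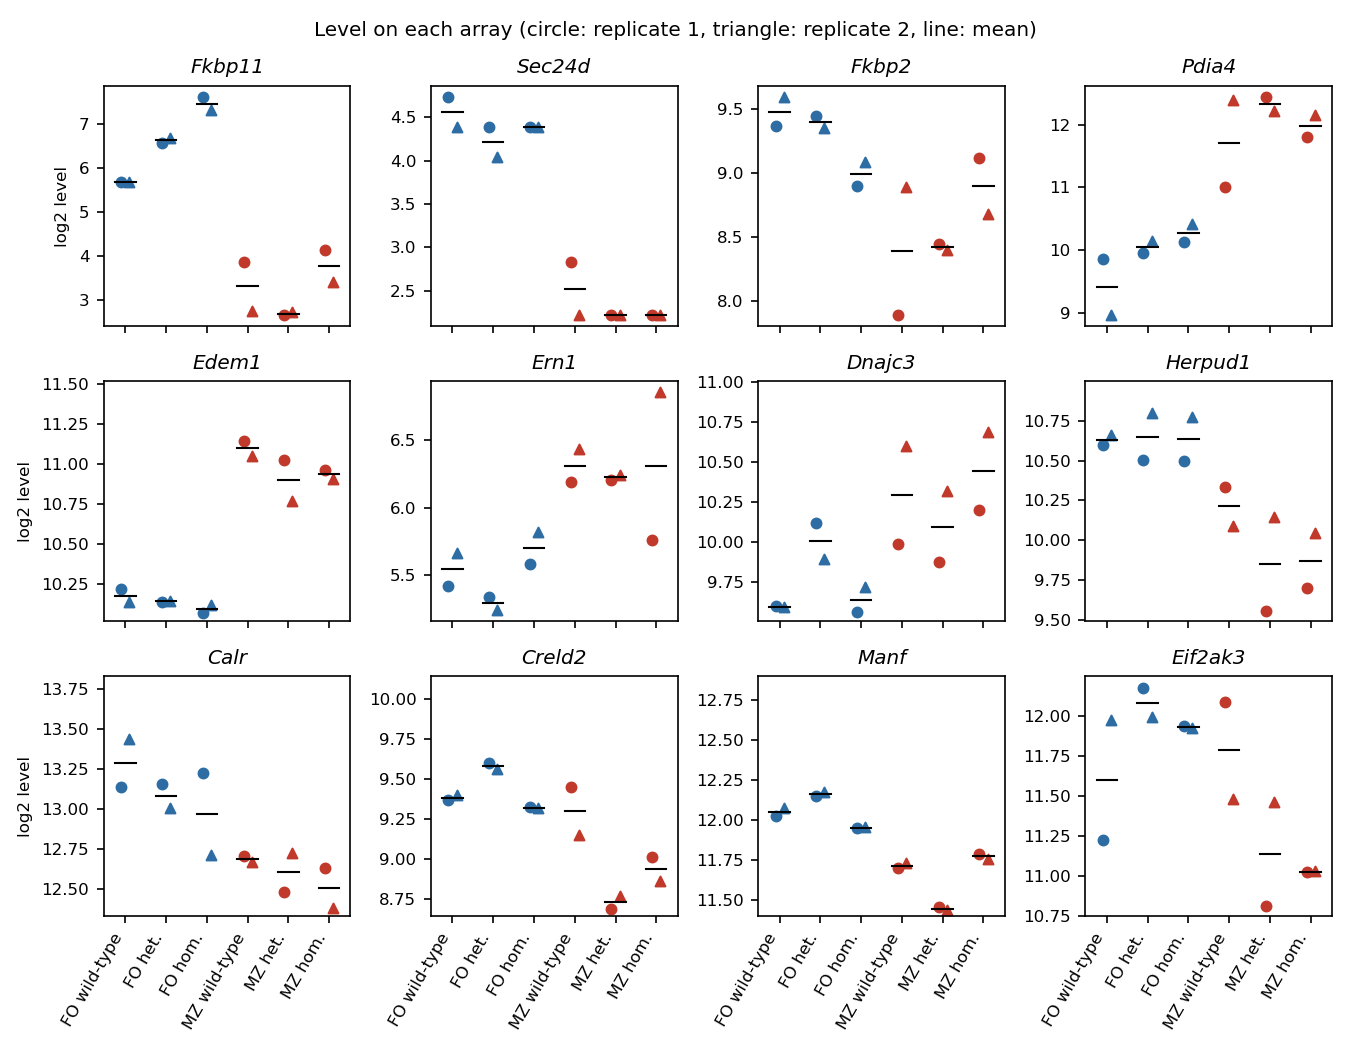
Log2 level on each array of the 12 members that passed for MZ minus FO averaged over the genotypes, with FO arrays in blue and MZ arrays in red, replicate 1 as a circle, replicate 2 as a triangle and a line at the group mean; each panel has its own axis, which does not start at 0. Fkbp11 climbs from 5.68 in wild-type to 7.31 and 7.61 in homozygous FO cells, and Sec24d sits at 2.22 on 5 MZ arrays.

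The members with an ERSE did not share a direction. Of the 8, Dnajc3 rose, Calr and Creld2 fell, and Hspa5, Hsp90b1, Canx, Pdia6 and Syvn1 did not pass. Herpud1, with an ERSE-II, fell, and Dnajb11 did not pass. Of the members with the largest differences, Pdia4, Edem1 and Fkbp11 held none of the 4 motifs in their windows. Sec24d, also among them, held the core of the UPR element.

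The second question of the design is whether loss of Bcl6 alters these genes within a cell type. No member passed in any genotype comparison. Counts for these comparisons are not given without the 4 arrays with neutrophil markers. The neutrophil markers were higher in homozygous than in wild-type FO cells by a median of 2.89, and their part was not tested. For homozygous against wild-type FO cells, 0.43% of genes tested passed in limma and no member, with 2 members (4.88%, against 6.97% of genes) at an unadjusted p under 0.05. For MZ cells 0.0645% of genes and no member passed, with 2 members (4.88%, against 6.08%) at that level. For heterozygous against wild-type cells 0% of genes passed in FO and 0.0107% in MZ cells, again with no member, and 1 member in each (2.44%, against 1.98% of genes in FO and 3.08% in MZ cells) had an unadjusted p under 0.05. The moderation with trend and robust settings also gave 0 members in each. The members' median differences were -0.05 and -0.04 for homozygous FO and MZ cells and 0.02 and -0.12 for heterozygous ones, against 0, -0.08, 0 and -0.05 over all genes.

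Fkbp11 came nearest to the threshold. In FO cells its group means were 5.68 ± 0.00 (SD, n = 2) in wild-type, 6.62 ± 0.10 in heterozygous and 7.46 ± 0.22 in homozygous arrays, and the arrays of the 3 genotypes did not overlap. Wild-type and homozygous FO arrays did not overlap in 33.9% of all genes tested. The homozygous difference was 1.78 ± 0.36 (SE), or 3.44-fold, with a limma p of 0.000903 and an adjusted p of 0.112. The heterozygous difference was 0.94 ± 0.36 (limma adjusted p = 1). Leaving out either wild-type MZ array, which does not enter this difference but does enter the shared error, brought the homozygous comparison to an adjusted p of 0.0264, and over all alternatives it ranged up to 0.585. In MZ cells the means were 3.31 ± 0.80, 2.69 ± 0.04 and 3.77 ± 0.50, without such an order. A dimmer Fkbp11 probe set did not show the order in FO cells either. It read 3.46 and 3.28 on wild-type arrays and 3.28 on each heterozygous and homozygous array, below the filter value of 4.

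The next largest homozygous differences in FO cells did not pass, although the arrays of Sdf2l1, Pdia4 and Pdia3 did not overlap between these genotypes. Sdf2l1 differed by -1.05 ± 0.44 (SE; limma adjusted p = 0.687), Pdia4 by 0.86 ± 0.44 (adjusted p = 0.832), Dnajb9 by 0.86 ± 0.99 (adjusted p = 0.972) and Pdia3 by -0.77 ± 0.43 (adjusted p = 0.873). In homozygous MZ cells, Eif2ak3 differed by -0.76 ± 0.31 and Creld2 by -0.37 ± 0.15 (both adjusted p = 0.801), followed by Sdf2l1 at 0.66, Edem2 at 0.64, Dnajb9 at -0.54 and Fkbp2 at 0.51. Without wild-type MZ replicate 2, Ssr1 passed in this comparison, and that left the wild-type group on the array with the 10.81 value alone.

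In heterozygous cells no member passed either. In FO cells, after Fkbp11, the largest differences were Dnajb9 at 0.70, Pdia4 at 0.64, Eif2ak3 at 0.48 and Dnajc3 at 0.41. In MZ cells, Dnajb9 differed by -1.92 ± 0.99 (SE), Atf4 by -0.89, Ddit3 by -0.84, Eif2ak3 by -0.65, Pdia4 by 0.63 and Creld2 by -0.57 ± 0.15 (limma adjusted p = 0.792 for each). All 5 stress sensors and factors were lower in heterozygous than in wild-type MZ cells, with a median of -0.65, as were 5364 of 9306 genes tested. For Atf4 and Eif2ak3 the gap lay between the replicate 1 arrays (12.96 and 11.08, and 12.09 and 10.81, wild-type first). The replicate 2 arrays read 12.03 and 12.11, and 11.48 and 11.46. Ern1 instead differed on replicate 2 (6.43 and 6.24). Wild-type replicate 1 was the array with the Gapdh difference and carried neutrophil markers. Immediate early genes were also lower in heterozygous MZ cells, by a median of 1.84 log2 units. The part of that activation state in these values was not tested.

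**Figure D4:**
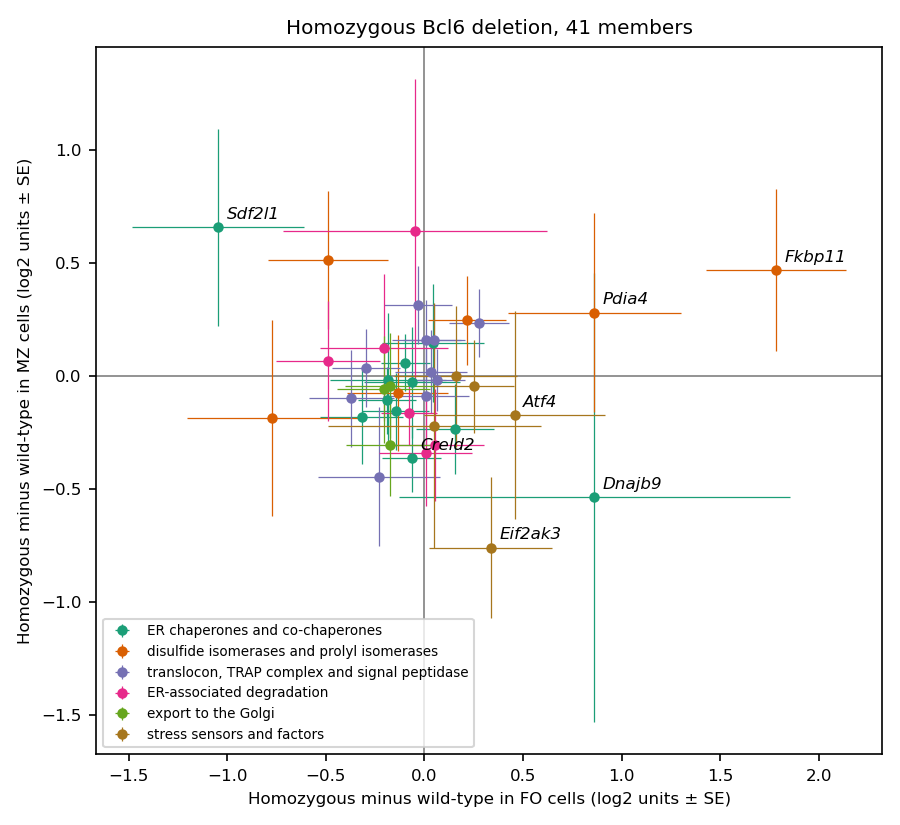
Homozygous minus wild-type difference of the 41 measured members in FO cells (horizontal) and MZ cells (vertical), in log2 units with standard errors as bars and colour by role. Fkbp11 lies at 1.78 in FO cells and Sdf2l1 at -1.05, and most other members cluster around 0 on both axes.

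Whether the homozygous effect differed between MZ and FO cells was tested as an interaction. No member passed in limma, against 0.0107% of genes tested, and 4 members (9.76%, against 3.74% of genes) had an unadjusted p under 0.05, namely Sdf2l1 (1.70 ± 0.62, SE), Fkbp11 (-1.32 ± 0.50), Eif2ak3 (-1.10 ± 0.44) and Fkbp2, each with an adjusted p of 0.975. The median over the members was 0.03, against -0.06 over all genes.

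Some members varied widely between the arrays of a group. Dnajb9 (ERdj4), a co-chaperone that helps hold IRE1 inactive, read 9.55 and 11.62, 11.95 and 10.62, and 12.06 and 10.83 on FO arrays and 13.22 and 11.28, 9.37 and 11.29, and 12.30 and 11.13 on MZ arrays. Arrays of the same group differed by 1.17 to 2.07 log2 units, with a pooled SD of 1.17, and no comparison of Dnajb9 passed. The lowest values fell on wild-type FO replicate 1 and heterozygous MZ replicate 1, where the mean of 12 immediate early genes, which mark recent activation or handling of cells, was also lowest at 9.93 and 8.58, against 10.46 to 12.71 on the other arrays. Atf4 was lowest on the same arrays. The highest Dnajb9 values fell on the 4 arrays with neutrophil markers, of both cell types, at 11.95 to 13.22 against 9.37 to 11.62 on the others. Ddit3 was highest on the same 4 arrays, at 9.48 to 9.93 against 8.27 to 9.18. The parts of activation, handling and other cells in this variation were not tested.

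**Figure D5:**
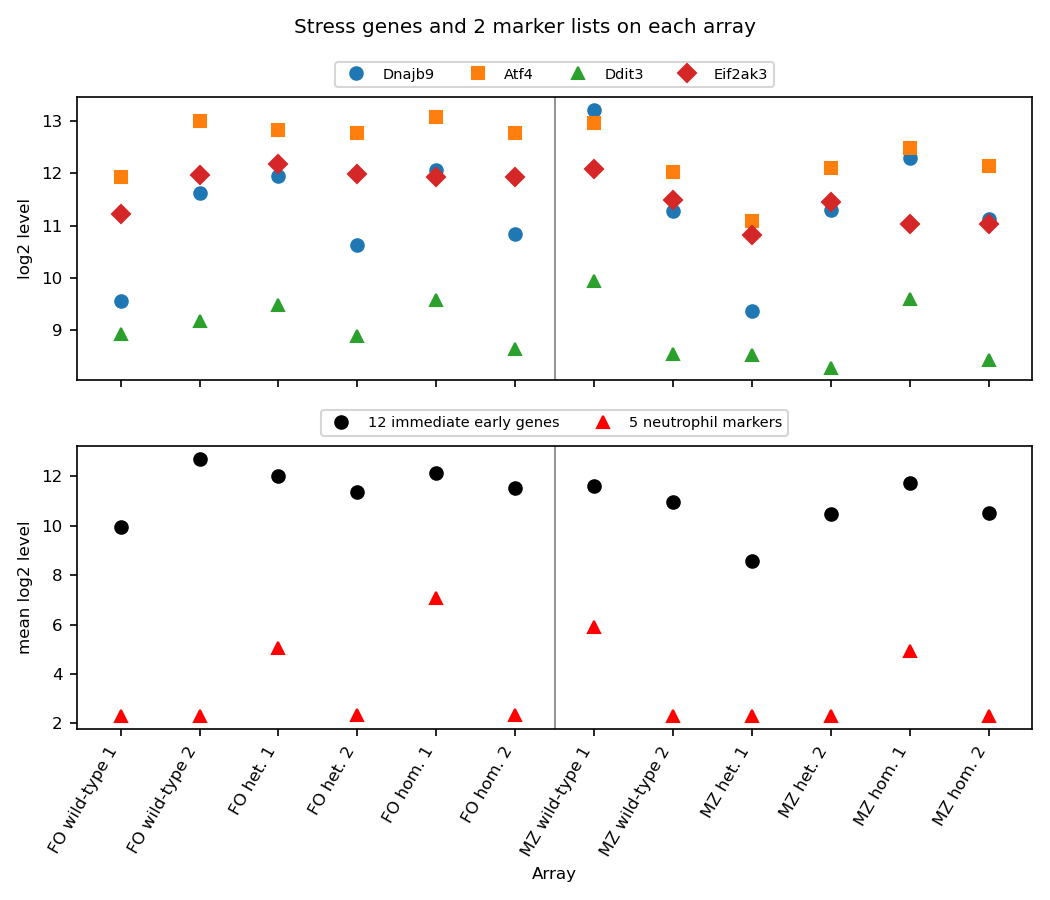
Upper panel, log2 level of Dnajb9, Atf4, Ddit3 and Eif2ak3 on each array; lower panel, mean log2 level of 12 immediate early genes and of 5 neutrophil markers on the same arrays, with FO arrays left of the line. Dnajb9 is lowest on wild-type FO replicate 1 (9.55) and heterozygous MZ replicate 1 (9.37), where the immediate early mean is lowest as well.

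Further genes of the pathway were read from lists that do not share genes with the members, again for MZ minus FO averaged over the genotypes and against 44.5% of all genes. The genes called lower in these lists depended on scaling. The list of translocation and signal recognition factors had 13 genes tested, of which 5 were called lower and Sec61a2 higher, but none was lower after quantile normalization or median centring. Sec62, a translocon partner, and Srp9, of the signal recognition particle, differed by -0.42 and -0.41 as deposited. Among 17 N-glycosylation genes 4 were lower and none higher, against 1 lower and 2 higher after quantile normalization. The oligosaccharyltransferase subunit Krtcap2 differed by -0.73, and Dad1 by -0.43, which did not pass after quantile normalization (adjusted p = 0.119) or without the 4 arrays with neutrophil markers (adjusted p = 0.0554). Among 30 COPII, COPI and cargo genes 10 were lower and 1 higher, against 3 lower and 4 higher after quantile normalization and 4 lower and 3 higher after centring. Arcn1, the delta subunit of the COPI coat, differed by -0.80 ± 0.08 (SE; limma adjusted p = 9.06e-05). The medians of these lists were -0.26, -0.24 and -0.22, beside -0.17 over all genes, and -0.05, -0.02 and -0.01, beside 0.04, after quantile normalization. Without the 4 arrays with neutrophil markers the lists held 1, 2 and 4 lower genes and none higher.

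Folding and degradation genes outside the members differed in both directions. Of 13 oxidative folding genes 3 were higher and 2 lower, with equal counts under both scalings, and without the 4 arrays with neutrophil markers 1 passed, lower in MZ cells. Txndc5 (ERp46), a thioredoxin-domain isomerase, read 10.55 to 11.68 on FO and 8.78 to 9.40 on MZ arrays, at -2.03 ± 0.24 (SE; limma adjusted p = 0.000221). Ero1a, which reoxidises disulfide isomerases, differed by 0.61 ± 0.12 (adjusted p = 0.00313, or 0.0688 without those 4 arrays). Of 13 degradation genes 3 were lower and Derl3 alone was called higher. After quantile normalization 2 were higher, Derl3 included, and none lower. Derl3, a derlin that is itself induced by the UPR, read 2.68 to 2.85 on FO and 4.94 to 6.02 on MZ arrays. Derl3 reached the filter through its MZ arrays alone, with FO values less than 1 log2 unit above the minimum. No weight rests on its call, and its levels are given without a p-value.

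Targets of the integrated stress response, the arm that runs through Atf4, were mixed, with 5 of 20 higher and 4 lower, or 6 higher and 1 lower after quantile normalization. Mthfd2, a mitochondrial folate enzyme gene, differed by 0.98 (limma adjusted p = 0.000571). Sesn2 and Asns read higher in MZ cells and Atf5 in FO cells, and each reached the filter in that cell type alone. They are among the genes counted, and no weight rests on their calls. Of 11 UPR factors outside the members, Creb3l2 was called higher and Wfs1 and Traf2 lower, against 4 higher and 1 lower after quantile normalization, and none passed without the 4 arrays with neutrophil markers. Creb3l2, a membrane-bound factor of the ATF6 type, differed by 0.70 ± 0.24 (SE; adjusted p = 0.0422), and this call was lost in 13 of 22 alternatives, with an adjusted p of up to 0.218. Xbp1 read 12.06 and 11.26, 11.22 and 11.74, and 10.82 and 11.26 on FO arrays and 10.90 and 11.79, 11.66 and 11.60, and 10.99 and 11.27 on MZ arrays, at -0.03 ± 0.21 (SE; adjusted p = 0.932). Spliced and unspliced Xbp1 mRNA are not told apart by these values.

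Genes of the plasma cell program were read beside the members because plasma cells carry the pathway at high levels. Prdm1 read 2.75 to 3.10 on FO and 5.75 to 7.67 on MZ arrays, and Mzb1, an ER protein of MZ and plasma cells, rose by 1.03 ± 0.12 (SE; limma adjusted p = 0.000203). Sdc1, which encodes the depleted surface marker CD138, read 6.38 to 7.99 on FO and 2.50 to 4.20 on MZ arrays. Prdm1 and Sdc1 each reached the filter in 1 cell type alone, and Tnfrsf17 (BCMA) lay near the minimum on all arrays. The 10 measured plasma cell markers together averaged 6.89 to 7.52 on FO and 7.19 to 7.94 on MZ arrays, and their summed level was 13.55 to 13.86 and 13.55 to 14.15 on the log2 scale. Jchain, the immunoglobulin joining chain, was highest on wild-type FO replicate 1 at 6.88. The part of plasma cells in the members' differences was not tested.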

How the data were processed

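RNA (TRIZOL; GeneChip 3'IVT Express Kit, per the labels) was measured on 12 Affymetrix arrays. The authors deposited log2 values for each probe set. The submitters' processing notes name GCRMA, whose version is not given in the sources used here. This method subtracts background by probe sequence, so low values collect at a minimum, and values within 0.5 of it were called near the minimum. Of 45101 probe sets, 34945 had 1 gene symbol in the platform annotation, 932 had several, 9211 had none and 64 were controls, left out of the tests. Each gene took its probe set with the highest mean.

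All 12 arrays entered a single limma 3.58.1 model of the 6 groups (lmFit, eBayes; R 4.3.3), with 6 residual degrees of freedom. Two-sided p-values of the 9 comparisons were adjusted by Benjamini-Hochberg over 9306 genes, with a threshold of 0.05. Differences carry the model's SE. The model was tested on simulated data with independent noise and few changed genes. Here deviations correlated between groups at up to 0.768, and 44.5% of genes passed for MZ minus FO on average. The simulation does not cover those conditions. The number of arrays limits the precision.

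Members, roles and lists were chosen with earlier results of these data known. All members past the threshold in any comparison were named, as were the 5 with the largest difference in each comparison, the stress sensors, Hspa5, Hsp90b1, Calr, Herpud1, Sdf2l1, Sec61a1, Lman1 and Xbp1, and up to 4 genes per other list. The immediate early list is given by its mean and median. Genes singled out beyond this rule were chosen after their values were seen. Alternatives changed the low-value filter, how probe sets represent a gene, scaling, variance moderation, the replicate number as a block, the arrays in the model and single arrays left out.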

Additional observations from a re-analysis of the deposited data

How the results depend on the processing

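Across the alternatives, Edem1, Fkbp2 and Pdia4 kept their direction and their call for MZ minus FO averaged over genotypes. Fkbp11 was dropped with the median over probe sets and Sec24d by the filter at 6, and both kept their call elsewhere, though they had been kept for their FO values. With that median, Eif2ak3 turned to 1.39 and Os9, a degradation lectin at -0.32 as deposited, to 0.076, neither past the threshold. Without a filter, or with all probe sets tested (chosen after seeing the data), the members called for MZ minus FO went from 5 to 8 in wild-type and from 5 to 9 in homozygous cells, and heterozygous against wild-type MZ cells went from 0 to 1 (Manf). In homozygous cells the filter at 6 and the median over probe sets each gave 3. Without the 4 arrays with neutrophil markers (chosen after seeing the data) the counts were 3 in wild-type, 2 in heterozygous, 2 in homozygous cells and 9 on average. Leaving out single arrays gave 3 to 8 in wild-type (3 without FO wild-type replicate 2, 8 without MZ wild-type replicate 2), 4 to 9 in heterozygous (4 without MZ heterozygous replicate 1), 3 to 6 in homozygous cells (3 without either FO homozygous array or MZ homozygous replicate 2) and 10 to 15 on average. For homozygous against wild-type it gave 0 to 1 in FO (Fkbp11 without either MZ wild-type array) and 0 to 1 in MZ cells, and for heterozygous against wild-type MZ cells 0 to 2 (Creld2 and Ssr1 without MZ wild-type replicate 2). Where a group kept 1 array, that array was assumed to vary like the other groups. Deviations of same-numbered arrays correlated between FO and MZ at -0.216 for wild-type, 0.119 for heterozygous and 0.68 for homozygous cells, and from -0.255 to 0.768 over all 15 pairs of groups. Since not every pair was above 0.1, the numbers were not taken to pair the samples. With the replicate block the counts were 15 on average, 6 in wild-type, 10 in heterozygous and 7 in homozygous cells, and no genotype comparison gained a member. With 2 arrays per group, and with Sec24d and Fkbp11 near the minimum in MZ cells, small differences and exact folds are beyond these data.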
